A study of Mus musculus with 8 samples.

Results

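The 44 genes described here encode the non-collagen part of the extracellular matrix and the enzymes that crosslink it: fibronectin, laminin chains, the proteins that tie basement membranes together, proteoglycans, matricellular and elastic fibre proteins, lysyl oxidases, and the hydroxylases that modify collagen. They were taken from a fixed list of gene symbols, and every array probe whose accession maps to a listed gene was included. All 44 genes had a probe, with 66 probes in all, out of 21612 named genes and 39429 probes on the array. RNA was measured in AML12, a hepatocyte line derived from the liver of a mouse transgenic for human TGF-α, after 24 h with irisin at 0.5 µg/ml (4 samples) or without irisin (4 control samples). Both groups grew in DMEM F-12 medium with 10% fetal bovine serum, and each sample was hybridized with a single dye to its own Agilent oligo array. The labels do not say whether the samples of a group came from separate cultures, so the p-values measure the spread between these samples, which may be technical. The comparison asks which of these matrix genes change when the cells are exposed to irisin, the peptide cleaved from Fndc5.

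The matrix around liver cells has a basement membrane part, built from laminin heterotrimers that nidogens, perlecan and agrin connect into sheets, and an interstitial part, in which fibronectin, small proteoglycans and elastic fibres surround collagen. Syndecans and glypicans carry heparan sulfate chains at the cell surface and hold growth factors there. Lysyl oxidases crosslink collagen and elastin outside the cell, after the Plod and P4ha hydroxylases have modified collagen chains inside it. In the liver, stellate cells and fibroblasts are the main source of the interstitial matrix, and TGF-β is its best known inducer.

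Expression values are log2 signals from which the 75th percentile of the same array was taken off, so that 0 stands for that percentile. The limma test took in probes that stood well above background on the complete set of 4 arrays in either group or in both. A call needed a change of 1.5-fold or more together with a Benjamini-Hochberg adjusted p under 0.05 over all tested probes. A probe's brightness depends on its sequence, so where a probe is named as the brightest this says how well it was measured and not how much RNA its gene made. That percentile averaged 472 ± 70.1 (SD, n = 4) in the control group and 783 ± 71.6 (SD, n = 4) in the irisin group. The scaling therefore takes 0.74 more off the log2 signal of the irisin arrays, and a probe whose unscaled signal is the same in both groups comes out at -0.74. The control arrays lay on 1 slide and the irisin arrays on another, each with its own scan, so the treatment cannot be told apart from slide or scan. Of the hepatocyte markers, 12 of 12 were tested and none was called, with a summed signal of 491 to 546 times the 75th percentile in the control samples and 405 to 475 times in the irisin samples.

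Of the 66 probes, 48 were tested, and they represent 34 of the 44 genes. None was called higher with irisin and 6 were called lower in limma, 1 probe each of Bgn, Fbln1, Gpc4, Lama3, Loxl1 and Vcan. The 6 probes are 12.5% of the tested matrix probes, while 11.7% of all 24092 tested probes were called lower and 0.714% higher, so the share called lower lay near that of the array as a whole. At an unadjusted p under 0.05, 11 matrix probes were lower and 4 were higher, 15 of 48 together, where 34.3% of all tested probes had such a p. The change was negative for 32 of the 48 matrix probes and for 65.2% of all tested probes. The groups did not overlap for 11 matrix probes (22.9%), of which 10 were lower with irisin and 1 was higher, and for 27.2% of all tested probes. With the brightest tested probe standing for each gene, the median log2 change was -0.067 over the 34 matrix genes and -0.064 over all 14311 tested genes.

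**Figure D1:**
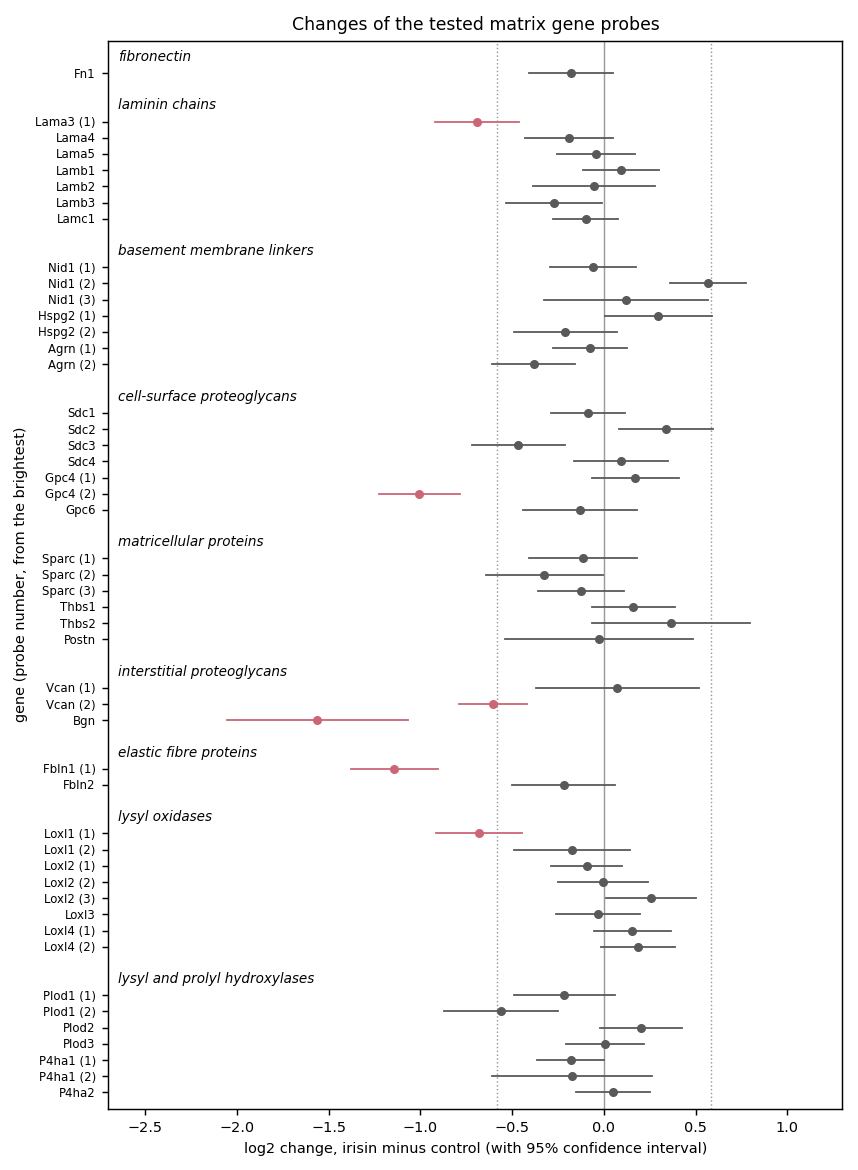
Log2 change of irisin minus control (x axis) with its 95% confidence interval for each of the 48 tested matrix gene probes (y axis), grouped by role. Numbers in brackets rank the probes of a gene from the brightest, red marks the 6 called probes, and dotted lines mark 1.5-fold. The 6 red probes lie between -1.56 and -0.60, and all other points lie between the dotted lines.

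RefSeq (GRCm38.p6) promoter windows were held for 27 of the 44 genes, among them 4 of the 6 with a called probe. The 250 bases upstream of the transcript start are shown for these 4, since they are the regulatory sequence next to the genes that were called. The windows lie at chrX:73483351-73483600 on the plus strand for Bgn, at chr15:85205699-85205948 on the plus strand for Fbln1, at chrX:52164924-52165173 on the minus strand for Gpc4 and at chr13:89742513-89742762 on the minus strand for Vcan, each read 5′ to 3′. Capitals mark matches on either strand to the TATA box (searched as TATAAA), the GC box (as GGGCGG), the CCAAT box (as CCAAT), the AP-1 site (as TGANTCA), the E-box (as CACGTG) and the SMAD element (as CAGAC), and matches may overlap.
Bgn: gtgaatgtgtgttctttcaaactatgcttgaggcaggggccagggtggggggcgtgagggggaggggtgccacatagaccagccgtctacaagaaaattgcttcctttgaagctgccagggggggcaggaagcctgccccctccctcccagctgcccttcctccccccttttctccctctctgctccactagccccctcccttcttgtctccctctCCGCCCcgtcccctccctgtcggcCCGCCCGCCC
Fbln1: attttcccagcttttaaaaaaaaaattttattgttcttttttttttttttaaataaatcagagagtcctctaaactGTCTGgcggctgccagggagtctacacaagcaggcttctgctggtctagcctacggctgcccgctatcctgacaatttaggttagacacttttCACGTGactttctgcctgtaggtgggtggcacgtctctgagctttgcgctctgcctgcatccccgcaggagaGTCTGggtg
Gpc4: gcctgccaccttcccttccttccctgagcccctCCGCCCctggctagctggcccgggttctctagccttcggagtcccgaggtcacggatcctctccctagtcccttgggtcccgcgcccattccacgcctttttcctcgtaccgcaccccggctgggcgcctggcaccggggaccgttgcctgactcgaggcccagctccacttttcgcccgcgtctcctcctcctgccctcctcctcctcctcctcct
Vcan: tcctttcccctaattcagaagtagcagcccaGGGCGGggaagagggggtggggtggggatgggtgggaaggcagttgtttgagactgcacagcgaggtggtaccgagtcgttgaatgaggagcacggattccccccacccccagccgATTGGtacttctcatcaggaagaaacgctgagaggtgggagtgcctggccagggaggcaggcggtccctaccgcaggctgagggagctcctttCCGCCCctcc

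The Bgn window holds 3 GC boxes, of which the farthest upstream starts 34 bases before the transcript start. Gpc4 has 1 GC box, and Vcan has 2 GC boxes and 1 CCAAT box. The Fbln1 window has no GC box but holds 1 E-box and 2 SMAD elements, and its GC content is 46.4%, against 64.4% for Bgn, 68.4% for Gpc4 and 62.4% for Vcan and a median of 52.4% over all 32851 windows. A GC box was present in 19 of the 27 matrix gene windows (70.4%) and in 32.7% of all windows. Each matrix gene counts once, by the window with the transcript start farthest upstream, while the 32851 windows come from 27025 genes. The shares of matrix genes thus count genes, and those of all windows count windows. A SMAD element was present in 13 matrix gene windows (48.1%) and in 42.2% of all windows. The CCAAT box was found in 7 (25.9%, against 33.8% of all windows), the TATA box in 3 (11.1%, against 12.4%), the E-box in 1 (3.70%, against 6.02%) and the AP-1 site in 0 (against 6.75%). These are matches of letters in a short window and were not tested against the expression changes.

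Bgn showed the largest decrease. It encodes biglycan, a small leucine-rich proteoglycan of the interstitial matrix. Its log2 signal was -5.05, -5.27, -6.05 and -5.68 in control replicates 1 to 4 and -7.22, -6.75, -7.48 and -6.85 in irisin replicates 1 to 4. Every irisin sample lay below every control sample, and control replicate 3 came closest to the irisin group. The mean fell from -5.51 ± 0.44 (SD, n = 4) to -7.08 ± 0.34 (SD, n = 4), a log2 change of -1.56 (95% confidence interval -2.06 to -1.07, limma adjusted p = 0.000568). Before scaling, the signal was 8.06 to 12.5 on the control arrays and 4.49 to 7.37 on the irisin arrays, so that Bgn was lower with irisin without any scaling as well. The signal was close to background: negative control spots had a median near 1 on every array, and Bgn was well above background on 4 control arrays and 3 irisin arrays, so that it entered the test through the control group alone and its fold change is uncertain. A filter that asked for signal above background on all 8 arrays removed Bgn from the test.

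Fbln1 encodes fibulin-1, a glycoprotein of elastic fibres and basement membranes. Its brightest probe gave -4.84, -4.75, -4.59 and -4.87 in the control samples and -5.70, -6.01, -6.09 and -5.84 in the irisin samples. The groups were separated by more than the range within either. The log2 change was -1.14 (95% confidence interval -1.38 to -0.90, limma adjusted p = 0.000111), or 2.21-fold lower. Unscaled signals overlapped between the groups, at 12.9 to 22.2 for control and 10.6 to 15.4 for irisin. The other probes of Fbln1, which the accessions assign to a different transcript, were well above background on no control array and on at most 1 irisin array, and were not tested. Fbln2, a related fibulin and the only other tested gene of the elastic fibre group, had a bright probe with log2 signals of 4.65, 4.47, 4.26 and 4.40 in the control samples and 4.08, 4.56, 4.10 and 4.17 in the irisin samples. These ranges overlapped and the change was -0.22 (95% confidence interval -0.50 to 0.06, limma adjusted p = 0.267). Fbn1, the fibrillin that scaffolds elastic fibres, and Fbln5, a fibulin needed for their assembly, were well above background on none of the 8 arrays with any probe.

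**Figure D2:**
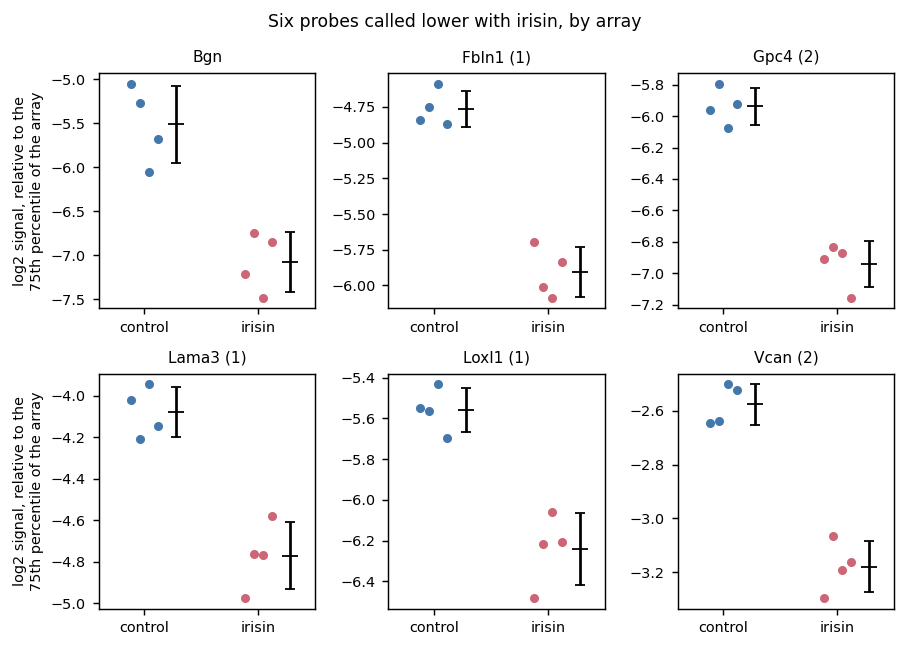
Log2 signal of each array against its own 75th percentile (y axis) for the 6 probes called lower with irisin, with 1 point per array and the mean ± SD (n = 4) beside each group. The y axes differ between panels, and control and irisin samples do not overlap in any panel.

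Among the interstitial proteoglycans, Vcan encodes versican, a large chondroitin sulfate proteoglycan. The accessions place its brighter and its second probe on different transcripts, and these probes differed. The second probe gave -2.64, -2.64, -2.50 and -2.52 in the control samples and -3.30, -3.07, -3.19 and -3.16 in the irisin samples. The groups did not overlap, and the change of -0.60 (95% confidence interval -0.79 to -0.42, limma adjusted p = 0.000466) was only just past 1.5-fold. The call was lost when control replicate 3 (-0.58), control replicate 4 (-0.58) or irisin replicate 1 (-0.56) was left out, and the unscaled signal overlapped, at 59.4 to 94.3 for control and 81.0 to 95 for irisin. The brighter probe gave -0.75, -0.64, -0.88 and -0.94 in the control samples and -0.60, -1.39, -0.26 and -0.67 in the irisin samples. It had no common direction, and its change was 0.07 (95% confidence interval -0.37 to 0.52, limma adjusted p = 0.845). Dcn and Lum, which encode the small proteoglycans decorin and lumican, did not stand above background in any sample.

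Cell-surface proteoglycans are the syndecans, which span the membrane, and the glypicans, which are anchored to it by a lipid. Of 7 genes, 6 were tested with 7 probes, and only the dimmer probe of Gpc4 was called. It gave -5.96, -5.80, -6.08 and -5.92 in the control samples and -6.91, -6.83, -6.87 and -7.16 in the irisin samples. The groups were well separated, and the change was -1.0 (95% confidence interval -1.22 to -0.79, limma adjusted p = 0.000122), or 2.01-fold lower. Its unscaled signal was 5.98 to 8.74 on the control arrays and 5.96 to 6.86 on the irisin arrays. The brighter Gpc4 probe, on another transcript accession, gave -1.69, -1.88, -1.78 and -1.90 in the control samples and -1.46, -1.57, -1.90 and -1.64 in the irisin samples, and its change was 0.17 (95% confidence interval -0.06 to 0.41, limma adjusted p = 0.296). Sdc4 had the brightest probe of the group, with 3.19, 3.01, 2.98 and 3.31 in the control samples and 3.00, 3.45, 3.18 and 3.25 in the irisin samples. Its ranges overlapped and the change was 0.095 (95% confidence interval -0.16 to 0.35, limma adjusted p = 0.627). Sdc1, the main syndecan of hepatocytes, changed by -0.085 and Gpc6 by -0.13, neither called. Sdc2 changed by 0.34 (limma adjusted p = 0.0569) and Sdc3 by -0.47 (limma adjusted p = 0.0119), and both stayed under 1.5-fold. Gpc1 was well above background on 2 arrays of each group and was not tested.

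**Figure D3:**
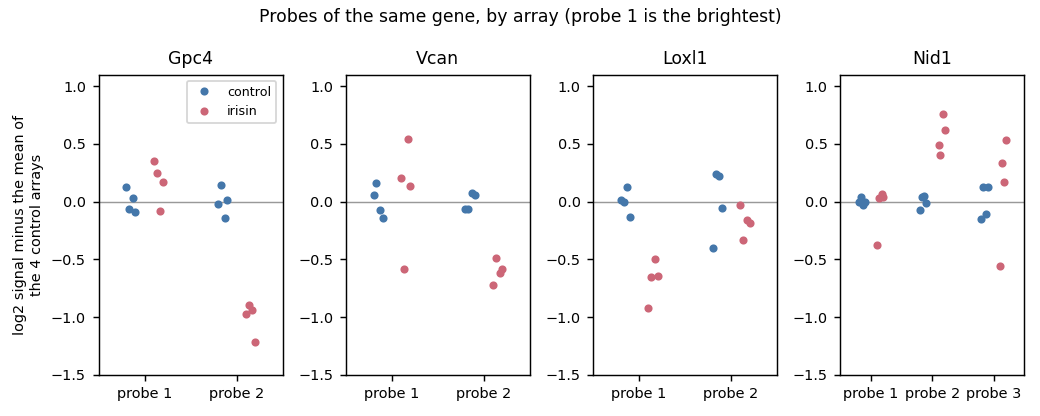
Log2 signal minus the mean of the 4 control arrays (y axis) for the tested probes of Gpc4, Vcan, Loxl1 and Nid1 (x axis, probe 1 being the brightest), with 1 point per array. In Gpc4 and Vcan the second probe lies lower with irisin while the brightest does not, in Loxl1 the brightest does, and in Nid1 the second probe lies higher.

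Of the laminin chains, 7 of 9 were tested with 1 probe each. Lama3, the α chain of epithelial laminin-332, was the only called chain. Its log2 signal was -4.02, -4.21, -3.94 and -4.15 in the control samples and -4.98, -4.76, -4.77 and -4.58 in the irisin samples. The groups did not overlap, and the change was -0.69 (95% confidence interval -0.92 to -0.46, limma adjusted p = 0.000725), or 1.62-fold lower. Before scaling, the mean signal was 28 for control and 28.9 for irisin, so that the call rests on the scaling. The second Lama3 probe was above background on no array. Lamb3, the β chain of the same heterotrimer, changed by -0.27 (95% confidence interval -0.53 to -0.01, limma adjusted p = 0.128).

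Lama5, the α chain of laminin-511 and laminin-521, had the brightest laminin probe. It gave 4.01, 3.86, 3.96 and 3.94 in the control samples and 3.94, 4.11, 3.73 and 3.83 in the irisin samples. The control values lay inside the range of the irisin values, and the change was -0.042 (95% confidence interval -0.26 to 0.17, limma adjusted p = 0.815). The chains that pair with Lama5 were also uncalled, with changes of 0.094 for Lamb1, -0.053 for Lamb2 and -0.10 for Lamc1. Lama4 changed by -0.19. Lama1 was above background on no array, and the better probe of Lama2 on 3 arrays of each group, so neither was tested.

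The basement membrane linkers Nid1, Hspg2 and Agrn were tested with 7 probes and none was called. Agrn encodes agrin and had the brightest probe of the group, at 5.19, 5.08, 5.11 and 5.14 in the control samples and 5.02, 5.27, 4.94 and 4.99 in the irisin samples. The change was -0.075 (95% confidence interval -0.27 to 0.13, limma adjusted p = 0.628). Of the Hspg2 (perlecan) probes, the brighter changed by 0.30 and the dimmer by -0.21, and the dimmer Agrn probe by -0.38 (limma adjusted p = 0.0187). Nid1 encodes nidogen-1, which binds the laminin γ chain, and its 3 probes did not move together. The second probe gave -6.18, -6.07, -6.06 and -6.12 in the control samples and -5.61, -5.71, -5.35 and -5.49 in the irisin samples. Every irisin sample was above every control sample, and the change of 0.57 (95% confidence interval 0.36 to 0.77, limma adjusted p = 0.00124) was 1.48-fold, just short of the threshold. The brightest Nid1 probe changed by -0.058 (95% confidence interval -0.29 to 0.18, limma adjusted p = 0.759) and the dimmest by 0.12 (95% confidence interval -0.33 to 0.57, limma adjusted p = 0.736), although all 3 carry the same transcript accession. Nid2 was above background on no array.

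Fn1 encodes fibronectin, a glycoprotein that hepatocytes secrete in quantity. Its probe gave 6.07, 5.80, 5.93 and 6.09 in the control samples and 5.72, 6.01, 5.71 and 5.75 in the irisin samples. Irisin replicate 2 lay within the control range and the other irisin samples below it. The change was -0.18 (95% confidence interval -0.41 to 0.05, limma adjusted p = 0.261; exact two-sided permutation test with 70 possible groupings, p = 0.114).

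Matricellular proteins act between matrix and cell without building fibres, and 4 of the 5 genes were tested. Sparc, which binds collagen, had the brightest probe, at 4.79, 4.80, 4.58 and 5.01 in the control samples and 4.49, 5.01, 4.53 and 4.69 in the irisin samples. The ranges overlapped and the change was -0.11 (95% confidence interval -0.41 to 0.18, limma adjusted p = 0.614). A second Sparc probe gave 1.17, 1.20, 1.64 and 1.78 in the control samples and 0.95, 1.14, 1.21 and 1.18 in the irisin samples, with a change of -0.33 (95% confidence interval -0.64 to -0.01, limma adjusted p = 0.138). The control samples spread more widely than the irisin samples there, and control replicates 1 and 2 lay inside the irisin range. Thbs1 changed by 0.16, Thbs2 by 0.36 (95% confidence interval -0.07 to 0.80, limma adjusted p = 0.222) and Postn by -0.028. Tnc was above background on no array with either probe.

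Of the lysyl oxidases, Loxl1, which crosslinks elastin, had 1 called probe. It gave -5.55, -5.56, -5.43 and -5.69 in the control samples and -6.48, -6.22, -6.06 and -6.20 in the irisin samples. The groups did not overlap, and the change was -0.68 (95% confidence interval -0.91 to -0.45, limma adjusted p = 0.000849), or 1.60-fold lower. The unscaled signal was 7.94 to 12.4 for control and 8.90 to 12.1 for irisin, and the change was -0.21 and not called with quantile normalization (limma adjusted p = 0.209) and with cyclic loess (limma adjusted p = 0.184). The second Loxl1 probe, of the same accession, gave -6.26, -5.62, -5.64 and -5.92 in the control samples and -5.89, -6.20, -6.02 and -6.04 in the irisin samples. These overlapped and the change was -0.18 (95% confidence interval -0.49 to 0.14, limma adjusted p = 0.440). This second probe was above background on 3 control arrays and 4 irisin arrays, so it entered the test through the irisin group alone. The brightest probe of the group belonged to Loxl2, at 2.00, 1.86, 1.92 and 1.94 in the control samples and 1.81, 2.00, 1.70 and 1.83 in the irisin samples, with a change of -0.094 (95% confidence interval -0.29 to 0.10, limma adjusted p = 0.506). The other probes of Loxl2 and those of Loxl3 and Loxl4 ranged from -0.031 to 0.26 in change and none was called. Lox was above background on no array.

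The 5 hydroxylase genes were all tested, with 7 probes and no call. P4ha2, a prolyl 4-hydroxylase subunit, had the brightest probe, at 1.71, 1.65, 1.72 and 1.74 in the control samples and 1.86, 1.89, 1.58 and 1.67 in the irisin samples. The change was 0.047 (95% confidence interval -0.15 to 0.25, limma adjusted p = 0.771). The lysyl hydroxylase Plod1 had the smallest p of the group in its dimmer probe, at -4.87, -5.23, -4.79 and -5.15 in the control samples and -5.25, -5.56, -5.72 and -5.75 in the irisin samples. The groups were just separate, and the change of -0.56 (95% confidence interval -0.87 to -0.25, limma adjusted p = 0.0128) was 1.47-fold, under the threshold. It was called when control replicate 2, control replicate 4 or irisin replicate 1 was left out, and the brighter Plod1 probe changed by -0.21. The remaining probes of Plod2, Plod3 and P4ha1 ranged from -0.18 to 0.20.

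The exact two-sided permutation test gave p = 0.0286, the smallest that 4 arrays against 4 allow, for each of the 6 called probes. It gave the same p for the Nid1 and Plod1 probes just described, the dimmer Agrn probe, Sdc3 and the brighter P4ha1 probe. Groups that do not overlap always reach this value, and they did not overlap for 22.9% of the matrix probes and 27.2% of all tested probes. For 33 of the 42 uncalled probes the 95% confidence interval lay wholly within 1.5-fold in either direction, so that with this scaling a larger change was outside the interval. Among the uncalled probes with a mean log2 signal at or above 0, this held for 16 of 19, the exceptions being 1 probe each of Hspg2, Sdc2 and Sparc.

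Of the 6 called probes, 5 had a mean log2 signal under -4. The ranges of signal used here were chosen after the values were seen. With a mean log2 signal at or above 0, 0 of 19 matrix probes were called lower, against 0.882% of all tested probes in that range. Between -4 and 0, 1 of 12 matrix probes was called lower, against 5.97% of all probes. Under -4, 5 of 17 were called lower, against 35.1% of all probes. These shares of the matrix probes were 0%, 8.33% and 29.4%. In the dimmest range the median change was -0.19 for the matrix probes and -0.33 for all probes.

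**Figure D4:**
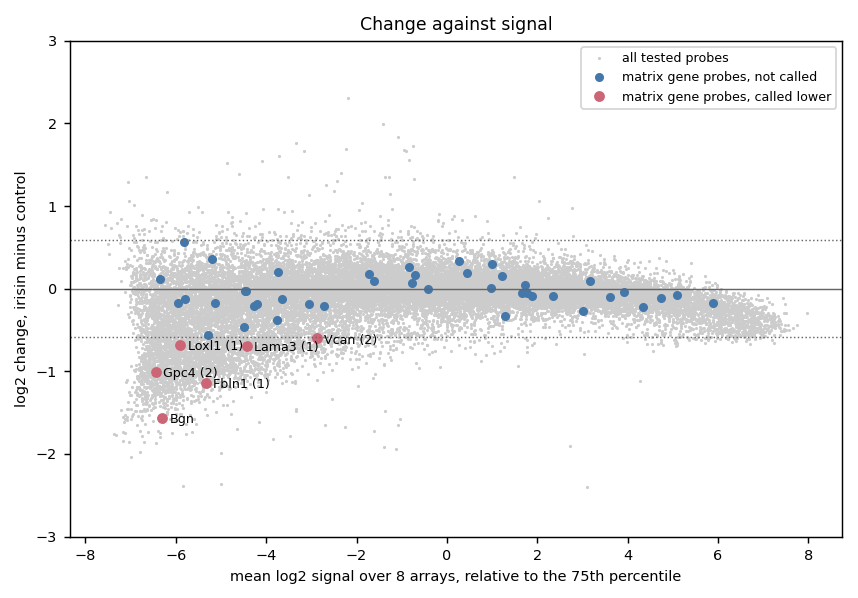
Log2 change of irisin minus control (y axis) against the mean log2 signal over the 8 arrays (x axis) for all 24092 tested probes (grey) and the 48 matrix gene probes, with the 6 called ones in red. The grey cloud bends downward at low signal, where 5 of the 6 red probes lie, and dotted lines mark 1.5-fold.

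The scaling between arrays changed which matrix probes were called. With quantile normalization, 2 probes were called lower and 3 higher (background 4.24% lower and 2.78% higher), and cyclic loess gave the same counts (background 3.84% lower and 2.9% higher). The probes called lower were Bgn and Fbln1 under both, and those called higher were Thbs2 and the 2 dimmer probes of Nid1 under both. The dimmest Nid1 probe was above background on 3 control arrays and 4 irisin arrays, so it entered the test through the irisin group alone. Bgn changed by -1.04 with quantile normalization and by -1.05 with cyclic loess, and Fbln1 by -0.77 and -0.73. The second Nid1 probe changed by 1.03 with either. The direction of the second Nid1 probe depended on the background correction. It was 0.58 with the planned normexp fit, which made no call on the whole array. There were 2 further normexp fits, both added after the data were seen. The fit without spots on a bright local background gave -0.37 (limma adjusted p = 0.00904). The fit from negative control spots gave -0.45 (limma adjusted p = 0.00107). Both changes stayed under 1.5-fold and were not called. Thbs2 changed by -0.31 and -0.38 in these fits and the dimmest Nid1 probe by -0.46 and -0.56. These changes also stayed under 1.5-fold, with limma adjusted p between 0.000211 and 0.0173. Bgn (-0.68) and Fbln1 (-0.66) remained called lower in the fit without spots on a bright local background (background 6.08% lower and 0.216% higher). Gpc4 (-0.58), Lama3 (-0.57), Loxl1 (-0.54) and Vcan (-0.57) fell just short of 1.5-fold there, with limma adjusted p between 0.000455 and 0.000841. In the fit from negative control spots, 8 matrix probes were called lower, among them all 6 called with the 75th percentile (background 15.9% lower and 0.228% higher). The others were the second probe of Loxl1 (-0.63) and the dimmer probe of Plod1 (-0.62). With scaling to the spike-in controls, Bgn was the only matrix probe called lower and 15 were called higher (background 1.5% lower and 32.4% higher). Without any scaling, Bgn was again the only one called lower (-0.82) and 29 were called higher (background 0.672% lower and 61.9% higher). Of the 48 tested probes, the unscaled change was negative for 3, those of Bgn, Fbln1 and Gpc4, as it was for 7.91% of all tested probes.

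**Figure D5:**
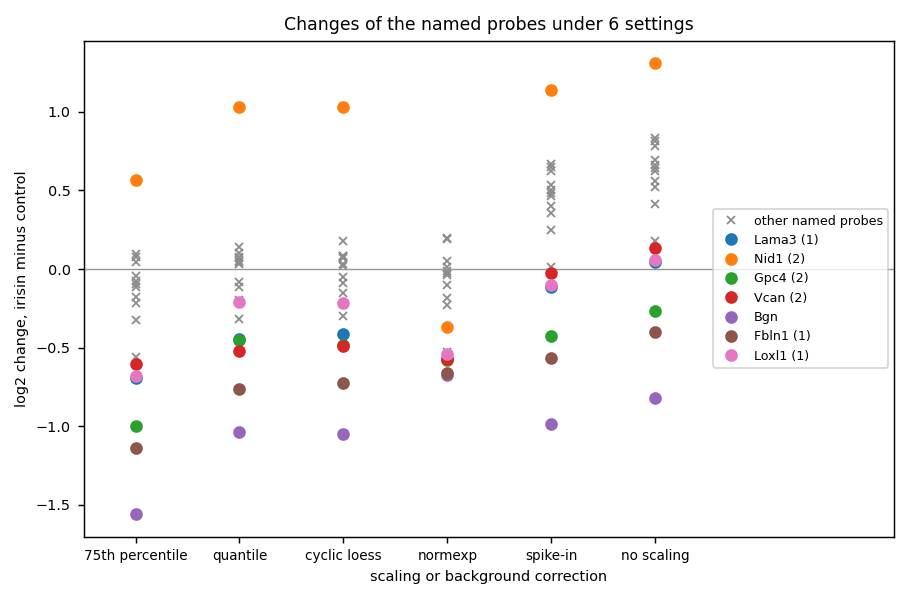
Log2 change of irisin minus control (y axis) for the 18 named matrix gene probes under 6 settings (x axis), where normexp is the fit without spots on a bright local background. Bgn, Fbln1 and the second probe of Gpc4 lie below 0 under all 6. The planned normexp fit, in which these probes lay above 0, is not shown. The second probe of Nid1 crosses 0 under normexp, and the grey crosses shift upward together under spike-in scaling and no scaling.

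Among 128 related matrix genes on the array, 85 were tested with 104 probes, of which 14 were called lower (13.5%, against 11.7% of all tested probes) and 1 higher. The 5 largest decreases were Chst3, a chondroitin sulfotransferase (-1.45), Spock1, a testican proteoglycan (-1.43), Fmod, which encodes fibromodulin (-1.18), Mfap2, a microfibril protein (-0.97), and Gpc5, a glypican (-0.96). The gene called higher was Chsy3, a chondroitin synthase (0.72). Further proteoglycans were tested with 5 probes, and all 5 were called lower, in Spock1, Fmod, Gpc5, Srgn and Acan. All of these were dim, with mean log2 signals between -6.26 and -5.12, a range where many probes of the array were called lower (35.1% of all tested probes under -4), and with quantile normalization or cyclic loess only Fmod and Spock1 were still called. Other matrix glycoproteins had 6 of 21 probes called lower and glycosaminoglycan synthesis enzymes 2 of 35. The 17 probes of collagen folding and crosslinking helpers and the 19 probes of matrix receptors, integrins among them, had no call in limma.

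Markers of matrix-producing cells were measured beside these genes. Of 9 stellate cell and fibroblast markers, 3 were tested, and 6, Des, Pdgfrb, Pdgfra, Lrat, Reln and Col3a1, were above background on no array. Col1a2 and Acta2 were called lower and Col1a1 was not, where 11.7% of all tested probes were called lower. The summed signal of the 9 genes was 0.108 to 0.159 times the 75th percentile in the control samples and 0.0732 to 0.0951 times in the irisin samples. This sum was lower with irisin, as were Bgn, Fbln1 and the other called probes. The change was negative for 65.2% of all tested probes. The part of these markers in the results for the called probes was not tested. In RNA from a whole culture, fewer cells of a type and less RNA per cell cannot be told apart. Of 7 endothelial markers 2 were tested with 1 called lower (Pecam1), and their summed signal was 0.706 to 0.794 times the 75th percentile in the control samples and 0.417 to 0.588 times in the irisin samples. Of 7 macrophage markers 3 were tested with 1 called lower (Marco), and their sum was 0.560 to 0.669 times and 0.467 to 0.558 times. The sums of the stellate, endothelial and macrophage markers were thus each lower in every irisin sample than in every control sample. So was the hepatocyte sum. The stellate and endothelial sums include 6 and 4 markers that were above background on no array. A signal that is the same in both groups before scaling comes out 0.74 lower in log2 with irisin. How much of the lower sums came from this scaling was not tested. Of 6 cholangiocyte markers 5 were tested with no call, and the sums overlapped.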

How the data were processed

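Gene expression was measured in AML12 cells on 8 arrays, 4 control and 4 irisin, grouped by their deposited labels. The authors labeled 500 ng of total RNA with Cy3, hybridized it to Agilent mouse oligo arrays and read the scans with the Agilent software Feature Extraction 12.0.3.1. They deposited spot signal intensity on a linear scale, background-subtracted and corrected for spatial trends but not normalized between arrays, with spot flags as other deposited columns and a value table, which holds the processed signal averaged over a probe's spots. No deposited column was left unmatched to a sample. The methods name ANOVA and the thresholds used here (1.5-fold, adjusted p under 0.05), but no normalization between arrays.

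Control spots and spots marked as outliers (0.221% to 0.463% per array) were left out, no spot was saturated, and the spots of a probe were averaged. Each array's log2 signal was then lowered by its 75th percentile. Names came from probe accessions, looked up in the RefSeq table of GRCm38.p6, which gave 28663 of 39429 probes (72.7%) a symbol. Between 59.5% and 64.0% of probes were well above background on each array. The number of arrays limits the precision. Differences were tested with limma 3.58.1 (lmFit, eBayes) in R 4.3.3 over 24092 probes, with adjusted p-values over all of them, and single values also by an exact two-sided permutation test. The fit was tested on simulated data. Tables and plots were made with Python 3.11.15, pandas 2.3.3, numpy 2.4.6 and matplotlib 3.10.9.

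Named were every gene with a called probe and, in each role, the tested probe with the smallest p and the brightest one, with the called related genes, at most 5 in each direction. The members, roles and lists were chosen with earlier results of these data known. Pairing by replicate number was checked by the correlation of same-numbered samples (-0.379 to 0.177), which did not pair them. The values were recomputed with other background corrections (normexp, offset 50), scalings (quantile, cyclic loess, median of detected probes, 8 spike-in probes, none), filters, the value table, marked spots kept, an intensity trend, the methods' F test, a replicate block, other thresholds and each array left out.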

Additional observations from a re-analysis of the deposited data

Results flagged for a closer look

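Each group of 4 arrays was searched for a sample that lay apart from the others by more than Dixon's limit for 4 values, over 78 groups of matrix gene probes, and 4 were found. Chance alone marks about 1 in 20 such groups. The log2 signal of Plod3, a lysyl hydroxylase, was 1.20 in control replicate 3 and 0.895 to 0.922 in the other control samples. The brightest Nid1 probe was at 1.43 in irisin replicate 1 and at 1.83 to 1.87 in the other irisin samples. Fn1 was at 6.01 in irisin replicate 2 and at 5.71 to 5.75 in the other irisin samples. Loxl3, a lysyl oxidase, was at -4.37 in irisin replicate 2 and at -4.52 to -4.50 in the other irisin samples. None of these probes was called.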

How the results depend on the processing

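The matrix probes gave 0 higher and 6 lower with scaling to the 75th percentile. The number higher was 3 with quantile normalization and with cyclic loess, 15 with spike-in scaling and 29 without scaling. It was 1 with the adjusted p alone (2.08%, against 2.96% of all tested probes). The number lower was 0 with normexp background correction, 8 with normexp from negative controls, 2 with normexp without bright background spots, with quantile normalization and with cyclic loess, 1 with spike-in scaling and without scaling, 14 with no filter on dim probes and 3 at a 2-fold threshold. Without the filter, the 14 made up 21.2% of the 66 matrix probes, while 32.3% of all 39429 probes were called lower. Among the 14 were probes of Lum, Fbn1, Fbln5 and Lox, genes above background on no array. At 2-fold, the 3 made up 6.25% of the tested matrix probes, against 3.23% of all tested probes. Leaving out 1 array gave 0 to 1 higher, the 1 being the second Nid1 probe without irisin replicate 1 or 2, and 5 to 7 lower. Of all tested probes, 0.423% to 1.39% were then called higher and 10.9% to 12.7% lower. The difference of medians between matrix genes and all genes was -0.0022 and moved beyond the spread between arrays only with normexp, to 0.17, and leaving out 1 array gave -0.013 to 0.0086. With the replicate block, 0 were higher and 6 lower (background 0.718% higher and 11.8% lower), and 3 of 8 samples correlated best with their own number. With normexp, signs turned for the called probes of Lama3 (0.28), Gpc4 (0.46), Vcan (0.058), Bgn (0.35), Fbln1 (0.32) and Loxl1 (0.46), and among uncalled named probes for Plod1 (0.44) and Sdc4 (-0.018). In that fit the background mean of irisin replicates 2 and 4 was set at -306.2 and -394.8, against -10.7 to -8.06 on the other arrays, and 11 and 5 of their spots had a local background above 100. Without scaling, signs turned for Lama3 (0.046), Lama5 (0.70), Agrn (0.66), Sparc (0.62), Vcan (0.14), Loxl1 (0.057), Loxl2 (0.64), Fn1 (0.56), Fbln2 (0.52), the second Sparc probe (0.41) and Plod1 (0.18), and the median change over tested probes was 0.66. The cause of the differences between settings was not tested. Of the called probes 5 of 6 have a mean log2 signal under -4, where signal over background limits what the arrays resolve.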
